A study of Mus musculus with 33 samples.

Results

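The transcripts of 7 mouse complement genes, C3, Cfb, Cfp, C6, C3ar1, C5ar1 and Cd55, were followed across cell classes, tissues and biotin sorts. They were taken by name from the 32285 genes listed in every matrix, and all 7 were found. The samples were single cells from mice carrying tumour cells that tag their neighbours with biotin (SAMENT, a niche labelling method). After labelling for about 10 hours, bone, brain, liver and lung were dissociated and sorted into biotin positive cells, which are the tagged ones, and biotin negative cells. All 8 tissue and sort groups after intracardiac injection held 4 samples each, 32 in all. The last of the 33 deposited samples was a pool of bone from an injection named only IIA, in which hashtags marked 6 biotin positive and 6 biotin negative samples. Every group came from injected and labelled mice, and no uninjected mice were used here. The strain, age and sex of the mice, the tumour cells, and whether replicates were separate mice are stated by none of the labels, so p-values measure the spread between samples.

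Complement is a set of plasma and membrane proteins that tag targets for uptake and lysis. C3 is the protein on which its 3 starting routes meet, factor B (Cfb) forms the convertase of the alternative route that cuts C3, and properdin (Cfp) holds that convertase together. C6 is a part of the membrane attack complex. C3ar1 and C5ar1 encode the receptors for the fragments C3a and C5a, which draw in and activate myeloid cells, and Cd55 encodes decay accelerating factor, which takes convertases apart on the cell's own surface. The liver is the main source of plasma complement, while macrophages and granulocytes also make some of these proteins locally.

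The genes lie at chr17:57203970-57228136 (C3, minus strand), chr17:34856374-34862518 (Cfb, minus), chrX:20925454-20931555 (Cfp, minus), chr15:4727175-4814967 (C6, plus), chr6:122847138-122856161 (C3ar1, minus), chr7:16246743-16259540 (C5ar1, minus) and chr1:130439027-130462744 (Cd55, minus) of GRCm38. All are protein coding. Values are over whole genes, since the counts do not separate exons, introns and UTRs. Cd55 shares its locus with Gm16083 on the other strand, which the matrices list on its own, and its near copy Cd55b lies beside it at chr1:130388537-130423009. Reads that fit both copies could be split or lost, so Cd55 levels carry that uncertainty.

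C3 and C3ar1, the ligand gene and a receptor gene, had different cell class patterns and moved in opposite directions in the IIA bone comparison, so the bases just upstream of both starts are shown. They come from RefSeq for GRCm38.p6, in which 6 of the 7 genes had an entry. The C3 bases lie at chr17:57228137-57228386 and the C3ar1 bases at chr6:122856162-122856407, and both are on the minus strand, written 5′ to 3′ towards the start. Capitals mark matches to the motifs searched on either strand.
C3: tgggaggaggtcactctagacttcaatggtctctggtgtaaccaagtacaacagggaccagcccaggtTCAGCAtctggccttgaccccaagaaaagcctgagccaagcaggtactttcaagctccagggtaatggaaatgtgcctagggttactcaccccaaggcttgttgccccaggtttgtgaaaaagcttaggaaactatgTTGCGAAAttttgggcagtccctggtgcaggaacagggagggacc
C3ar1: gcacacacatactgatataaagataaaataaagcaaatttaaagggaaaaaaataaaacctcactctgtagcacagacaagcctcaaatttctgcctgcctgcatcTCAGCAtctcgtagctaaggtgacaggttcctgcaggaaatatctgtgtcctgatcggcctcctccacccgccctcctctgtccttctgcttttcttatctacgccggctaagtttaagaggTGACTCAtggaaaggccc
The motifs were GAGGAA (a PU.1-type ETS site), TGANTCA (AP-1), TGCTGA (a MAF half-site), CACGTG (an E-box) and TTGCNNAA (C/EBP). The C3 bases held 1 match to TTGCNNAA and 1 to TGCTGA. The C3ar1 bases held 1 match to TGANTCA and 1 to TGCTGA. In the same window, 9.55% of 27025 genes held TTGCNNAA, 6.87% held TGANTCA and 15.8% held TGCTGA, while 23.1% held GAGGAA and 6.05% held CACGTG. Cd55 held 2 matches to TGCTGA, and neither Cfp nor C6 held a match. A match is a description of the letters only.

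Levels are given as UMIs (unique molecular identifiers, one per captured transcript) of a gene on the counts-per-million scale (CPM) of all UMIs of the cells summed in a sample. The intracardiac libraries read the 3′ end and the IIA library the 5′ end, so levels are not compared between them, nor between genes. After filtering, 55366 of 57065 intracardiac barcodes and 22362 IIA cells were kept, with 94 to 3505 cells per intracardiac sample and 249 to 3480 per IIA sample. Total UMIs ran from 497940 to 44874529 over the intracardiac samples. Samples of the same replicate number shared no barcode in any of 112 pairs, and samples of other numbers shared at most 7 in any of 384 pairs. The samples numbered 2 stood apart for C6 in every intracardiac tissue, as described with that gene. Clusters were named by resemblance to marker lists, and a macrophage here means a macrophage-like cell. None of the complement genes took part in clustering or naming.

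Of the components, C3 had its highest intracardiac medians in monocytes and granulocyte precursors, among classes with 3 or more samples. Over the intracardiac samples with at least 20 cells of a class, its lowest, median and highest levels were 202, 291 and 432 in monocytes (n = 23), 130, 253 and 418 in granulocyte precursors (n = 16), and 41.4, 108 and 276 in neutrophils (n = 32). The class named stromal cell or fibroblast entered with only 2 samples, at 647 in liver and 173 in lung. Its single cluster was mixed: the 10 leading genes held Alb and Ttr, genes of hepatocytes, beside Dcn, Mgp and Col1a2, and 85 of its 199 cells came from biotin positive liver. Which of these cells held the C3 and Cfb UMIs was not tested. Nonclassical monocytes had 57.7, 140 and 206 (n = 20), alveolar macrophages 54.0, 77.0 and 168 (n = 5), and macrophages 19.7, 64.5 and 163 (n = 25). The monocyte range lay above the macrophage range without overlap, whereas monocytes and granulocyte precursors overlapped widely. In IIA bone, granulocyte precursors had 201, 393 and 557 (n = 12) and monocytes 262, 338 and 368 (n = 7), again with overlap. Granulocyte precursors and neutrophils together held most C3 UMIs of the intracardiac cells, 41.7% and 23.4%, and monocytes held 20.6%. The granulocyte precursor class included a cluster of 1592 cells led by cell cycle and histone genes. Its 10 leading genes held only Top2a and Mki67 of the granulocyte precursor list, so its name rests largely on cell division. That cluster made up 42.9% of the class in biotin negative bone and 56.0% in biotin negative brain. The lineage of its cells was not tested.

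Cfb had its highest intracardiac medians in alveolar macrophages and macrophages, among classes with 3 or more samples. Its levels were 24.6, 45.1 and 92.2 (lowest, median, highest; n = 5) in alveolar macrophages and 0, 21.7 and 105 in macrophages (n = 25). Monocytes reached 22.4 with a median of 8.44. Alveolar macrophages lay above every monocyte sample and within the macrophage range. The mixed stromal cluster had 101 in its liver and 14.4 in its lung sample. In IIA bone, a stromal cluster led by collagen genes had 37.7, 66.9 and 159 in 3 samples, above the IIA macrophage range of 0 to 32.9 (n = 11).

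Cfp, the properdin gene, had its highest median in macrophages, at 26.8, 339 and 1342 (n = 25), followed by conventional dendritic cells at 104, 162 and 454.5 (n = 19), monocytes at 76.0, 156 and 204 (n = 23) and neutrophils at 87.7, 124 and 181 (n = 32). These 4 ranges overlapped. Alveolar macrophages, at 55.0, 78.4 and 96.7 (n = 5), lay below every dendritic cell sample. Microglia, at 7.57, 13.4 and 22.4 (n = 3), lay within the range of T cells, at 0, 11.3 and 38.9 (n = 25). The macrophage spread followed the macrophage clusters. The liver cluster led by Cd5l and Clec4f, genes of Kupffer cells, had 1341 and 1024 in the biotin negative liver samples 2 and 3, and 1191, 1399 and 1514 in the positive samples 1 to 3. Every one of those 5 samples exceeded the cluster led by Pf4 and Spp1, which ranged from 221 to 492 with a median of 317 (n = 16). The cluster led by Ccl12, Ptgds and Lyve1, found mostly in brain, had a median of 130 and a highest value of 308 (n = 10).

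C6 was close to a single-cluster transcript. The Cd5l and Clec4f macrophages of liver had 862 and 460 in the negative samples 2 and 3, and 551, 1098 and 1010 in the positive samples 1 to 3. The Pf4 and Spp1 macrophages had no more than 9.26 in any of 16 samples, 8 of which were at 0. A Vcam1, Ccr3 and Spic macrophage cluster, whose cells were shallow (0.232 of their samples' median UMIs), reached 278 in liver positive sample 2, while its 3 bone samples had 5.32, 31.9 and 0. Of 7629 intracardiac C6 UMIs, 93.7% lay in the macrophage class, and 6449 came from liver positive sample 2 alone. In IIA bone only 16 C6 UMIs were counted in all.

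The receptors split by class. C3ar1 was highest in microglia, at 299.9, 345 and 432 (n = 3), and macrophages, at 0, 283 and 403 (n = 25), which overlapped. The next class, conventional dendritic cells, had a median of 17.1 and a highest value of 79.7 (n = 19). Alveolar macrophages did not exceed 1.91 in 5 samples and neutrophils did not exceed 1.84 in 32. Macrophages and microglia held 82.5% and 8.01% of the intracardiac C3ar1 UMIs. Among macrophage clusters, the Ccl12 cluster (270.2, 351 and 670; n = 10) and the Pf4 and Spp1 cluster (254, 320 and 510; n = 16) lay above the Cd5l cluster, at 109, 144 and 182 (n = 5), without overlap. In IIA bone, macrophages had 6.72, 122 and 232 (n = 11), and a basophil or mast cell class had 5.94, 54.1 and 70.8 (n = 4).

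C5ar1 covered both macrophages and granulocytes. Alveolar macrophages had 241, 319 and 400 (n = 5), macrophages 32.6, 304 and 697 (n = 25), neutrophils 173, 299 and 503 (n = 32) and microglia 149, 262 and 425 (n = 3), 4 ranges that overlapped. Nonclassical monocytes (30.3, 165 and 313; n = 20) and monocytes (29.6, 112 and 239; n = 23) had lower medians. Granulocyte precursors, at 11.1, 40.8 and 69.7 (n = 16), lay below every neutrophil sample. Alveolar macrophages, near 0 for C3ar1, thus had a C5ar1 median close to those of macrophages and neutrophils.

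Cd55, the regulator, had its highest levels in 1 endothelial cluster and in B cells. Of its UMIs, intracardiac neutrophils held 32.7%, B cells 32.5% and endothelial cells 9.80%, and in IIA bone neutrophils held 53.6% and B cells 18.9%. An endothelial cluster led by Clec4g and Gpr182, genes of liver sinusoids, had 594, 878 and 1167 (n = 6), whereas an endothelial cluster led by Ly6c1 and Cldn5 had 10.4, 17.2 and 33.6 (n = 3). The clusters did not overlap. B cells had 79.2, 223 and 564 (n = 26), and NK cells, T cells and neutrophils had medians of 32.8 (n = 13), 28.6 (n = 25) and 25.7 (n = 32) with overlapping ranges. The B cell range lay above that of neutrophils, whose highest sample had 64.0, and overlapped that of NK cells, whose highest had 82.2. IIA B cells, at 209, 412 and 497 (n = 6), lay above IIA neutrophils, at 37.7, 67.1 and 106 (n = 12).

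**Figure D1:**
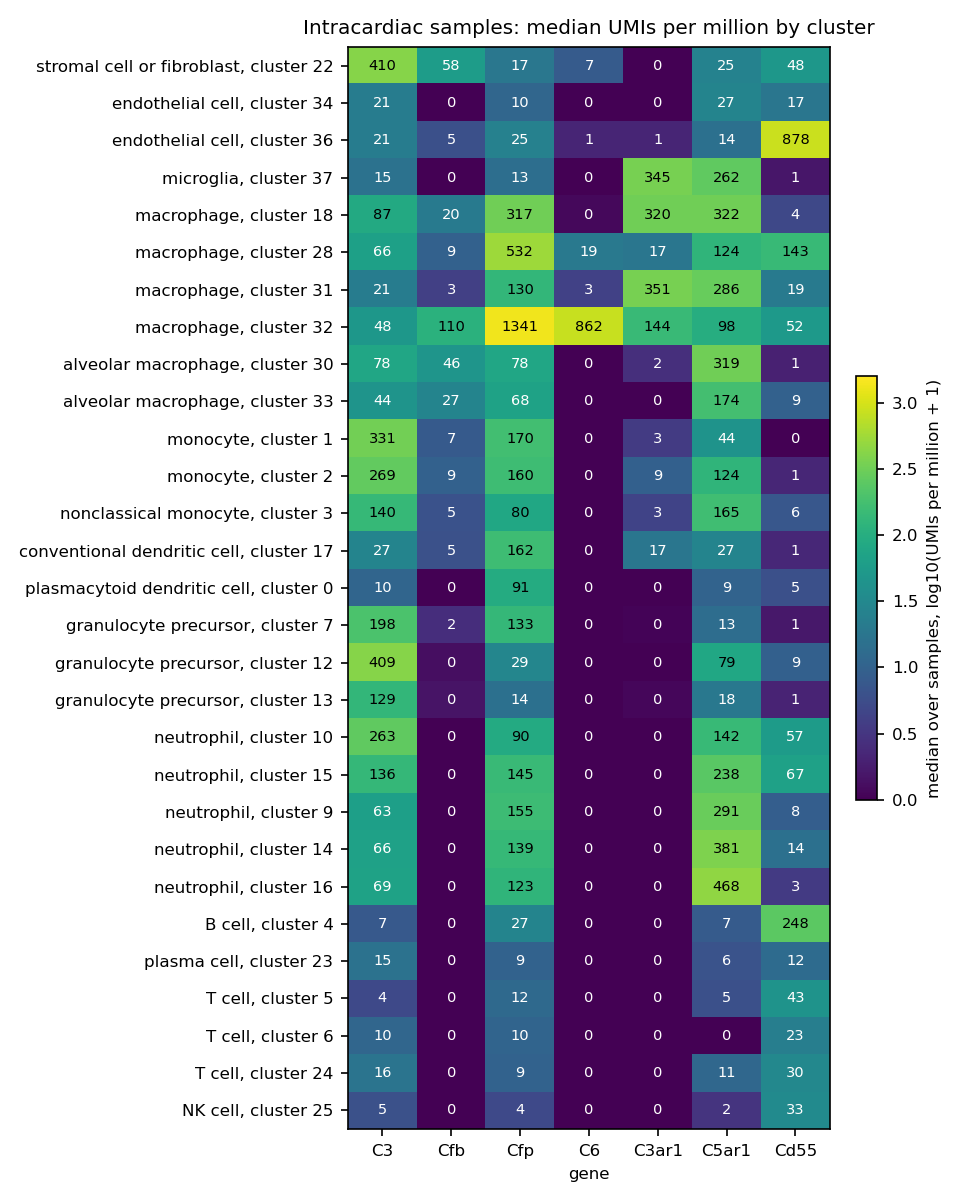
Median level of each gene (columns) in each intracardiac cluster (lines), in CPM over the samples with at least 20 cells of the cluster; colour is log10(level + 1) and the printed number is the level. C6 stood at 862 in macrophage cluster 32, led by Cd5l and Clec4f, and C3ar1 was high in microglia (345) and in macrophage clusters 18 and 31 (320 and 351).

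The first question was whether tagged cells as a whole held other levels of these genes than untagged cells of the same tissue. UMIs were summed over all kept cells of a sample and tested with edgeR's quasi-likelihood test over all genes, with Benjamini-Hochberg adjustment. In sums of this kind, fewer cells of a type and less RNA per cell cannot be told apart, so shares of the classes that held most of a gene are given with the results. Across the 4 intracardiac tissues, lung had members past an adjusted p of 0.05 without a replicate block, and brain had them with the block, as described there.

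In lung, Cfb and C3ar1 rose and Cd55 fell in the tagged cells. Cfb had 8.56, 4.25, 3.65 and 3.43 in the negative samples 1 to 4 and 33.5, 33.7, 44.5 and 17.5 in the positive ones. All 4 positive samples lay above all 4 negative samples. The log2 difference was 2.47 (SE 0.37, edgeR adjusted p = 0.0041). C3ar1 had 10.98, 15.3, 11.3 and 21.0 in the negative samples and 64.2, 66.5, 19.5 and 65.1 in the positive ones. Positive sample 3 fell within the negative range, and the others lay above it. The log2 difference of C3ar1 was 1.57 (SE 0.39, edgeR adjusted p = 0.0263). Cd55 had 49.8, 12.8, 35.1 and 23.6 in the negative samples and 11.5, 1.598, 7.94 and 12.5 in the positive ones, with no overlap. The samples gave a log2 difference of -2.06 (SE 0.60, edgeR adjusted p = 0.0423). These were 3 of the 6 members tested, in a comparison in which 18.3% of all genes passed, 11.5% higher and 6.8% lower. C3, Cfp and C5ar1 had log2 differences of -0.43, 0.19 and 0.31.

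The makeup of the lung sorts moved with these genes. Alveolar macrophages averaged 0.28% of negative and 43.4% of positive cells, from 14.2% to 79.1% over the positive samples, macrophages 2.12% and 10.6%, B cells 12.5% and 2.31%, and neutrophils 35.5% and 25.5%. With the macrophage, alveolar macrophage and microglia classes left out, no member passed, nor did any gene, against 2254 genes in the full fit. Cfb had a log2 difference of 0.86 (edgeR adjusted p = 0.708), C3ar1 0.17 (0.944) and Cd55 -0.82 (0.624). Macrophages held 82.5% of the intracardiac C3ar1 UMIs, and alveolar macrophages and macrophages 36.2% and 33.8% of those of Cfb. Leaving them out removed most UMIs of both genes, so that fit is no result about the members. Cfb passed in 13 of 14 alternatives (adjusted p 2.9e-08 to 0.708), C3ar1 in 9 of 14 (0.0013 to 0.944) and Cd55 in 8 of 14 (0.0040 to 0.624). C3ar1 missed the threshold without negative sample 1 or 3 or positive sample 1 or 2 (0.0526 to 0.0636), and Cd55 without negative sample 1, 3 or 4 or positive sample 1 or 3 (0.0750 to 0.122).

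In brain, none of 6 members passed edgeR's test, where 3.06% of 11064 genes did, 2.88% higher and 0.181% lower. An unadjusted p under 0.05 was reached by 1 of the 6, beside 21% of all genes. DESeq2, which called more genes than edgeR, called 1 of the 6. In each case the gene was C3ar1. It had 2.63, 33.9, 22.1 and 4.19 in the negative samples and 67.8, 286, 135 and 163 in the positive ones, all above the negative samples. The log2 difference was 3.07 (SE 0.83, edgeR adjusted p = 0.0802; 0.0020 to 1.00 over 14 alternatives). C3 leaned the other way, from 241, 97.0, 131 and 180 in the negative samples to 187, 31.1, 40.7 and 75.6 in the positive ones, lower in all 4 numbered pairs. Its log2 difference was -1.204 (SE 0.57, edgeR adjusted p = 0.269; 0.0302 to 1.00 over the alternatives). Same-numbered brain samples deviated together, and with the replicate number as a block both passed: C3ar1 at 3.59 (SE 0.49, edgeR adjusted p = 0.0137) and C3 at -1.53 (SE 0.31, 0.0388). C3 also passed when positive sample 1 was left out, where its difference moved to -2.04 (SE 0.42, edgeR adjusted p = 0.0302). Macrophages averaged 4.25% of negative and 35.6% of positive brain cells, and microglia 0.45% and 18.9%. In the positive samples macrophages ran from 11.2% to 80.4%, highest in sample 2, and microglia from 3.26% to 45.7%, highest in sample 4. With the macrophage and microglia classes left out, the C3ar1 difference was 0.46. Of the classes that held most C3, monocytes averaged 12.9% of negative and 1.57% of positive brain cells, granulocyte precursors 8.62% and 3.16%, and neutrophils 35.6% and 18.4%. The part of these shares in the C3 difference was not tested.

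In liver, none of 7 members passed, nor did any of 11854 genes (0%), of which 1571 reached an unadjusted p under 0.05. The members Cfb, C6 and Cfp were among those 1571, and DESeq2 called 1 member, Cfb (adjusted p = 0.0363). Cfb had 10.99, 7.17, 11.5 and 1.25 in the negative samples and 33.8, 94.2, 26.1 and 8.29 in the positive ones, and positive sample 4 overlapped the negative range. Its log2 difference was 2.24 (SE 0.66, edgeR adjusted p = 0.221; 0.0363 to 0.465 over 14 alternatives). C6 had 0, 13.6, 6.58 and 0 in the negative and 18.0, 919, 65.4 and 0 in the positive samples. Its log2 difference of 5.33 (SE 1.97, edgeR adjusted p = 0.308; 0.125 to 0.537) was 2.38 without positive sample 2. Cfp had 77.0, 145, 127 and 105 against 133, 1203, 197 and 120.2, and its difference of 1.57 was 0.20 without that sample. Positive sample 2 thus had the highest value of both genes. Positive samples 1 and 3 also lay above every negative sample for C6, and positive sample 3 did for Cfp. Macrophages made up 2.13% to 83.4% of positive liver cells and averaged 5.03% of negative ones. The mixed stromal class averaged 0.020% of negative and 2.12% of positive cells, with up to 6.06% in a positive sample, and endothelial cells 2.47% and 9.76%. The part of these 2 classes in the Cfb values was not tested.

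In bone after intracardiac injection, none of 6 members passed, nor did any of 12533 genes (0%), of which 983, with C3ar1 as the single member, reached an unadjusted p under 0.05. By DESeq2 no member was called. C3ar1 showed the widest spread, at 2.46, 2.32, 1.45 and 0.31 in the negative samples and 21.7, 50.3, 0.42 and 0.22 in the positive ones. Positive samples 1 and 2 lay above every negative sample, and positive samples 3 and 4 lay near the lowest one. The log2 difference was 3.25 (SE 1.34, edgeR adjusted p = 0.615; 0.366 to 0.915 over 14 alternatives, with differences from 0.25 to 3.69). Macrophages made up 1.16% to 39.3% of the positive bone cells and averaged 0.30% of the negative ones. C3 had 265, 241, 194 and 203 in the negative and 295, 183, 158 and 161 in the positive samples, which overlapped, with a log2 difference of -0.36 (SE 0.22, edgeR adjusted p = 0.653; 0.355 to 0.999). Granulocyte precursors averaged 17.6% of negative and 25.9% of positive bone cells, neutrophils 46.0% and 38.2%, and monocytes 10.9% and 3.11%.

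Whether the positive minus negative difference itself varied between the 4 tissues was tested in 1 model over all 32 samples. None of the 7 members passed edgeR's test, where 1.15% of 13963 genes did. Beside 13% of all genes with an edgeR unadjusted p under 0.05, Cd55, Cfb and Cfp had unadjusted p-values of 0.0060, 0.0176 and 0.033. Their adjusted p-values were 0.153 (0.0469 to 0.656 over 38 alternatives), 0.245 (0.0367 to 1.00) and 0.325 (0.0879 to 1.00). With the replicate block Cfb (0.0367) and C6 (0.0224) passed, and with DESeq2 Cd55 did (0.0469). The lung calls are therefore not shown to differ from the other tissues by the test as fitted without a block.

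**Figure D2:**
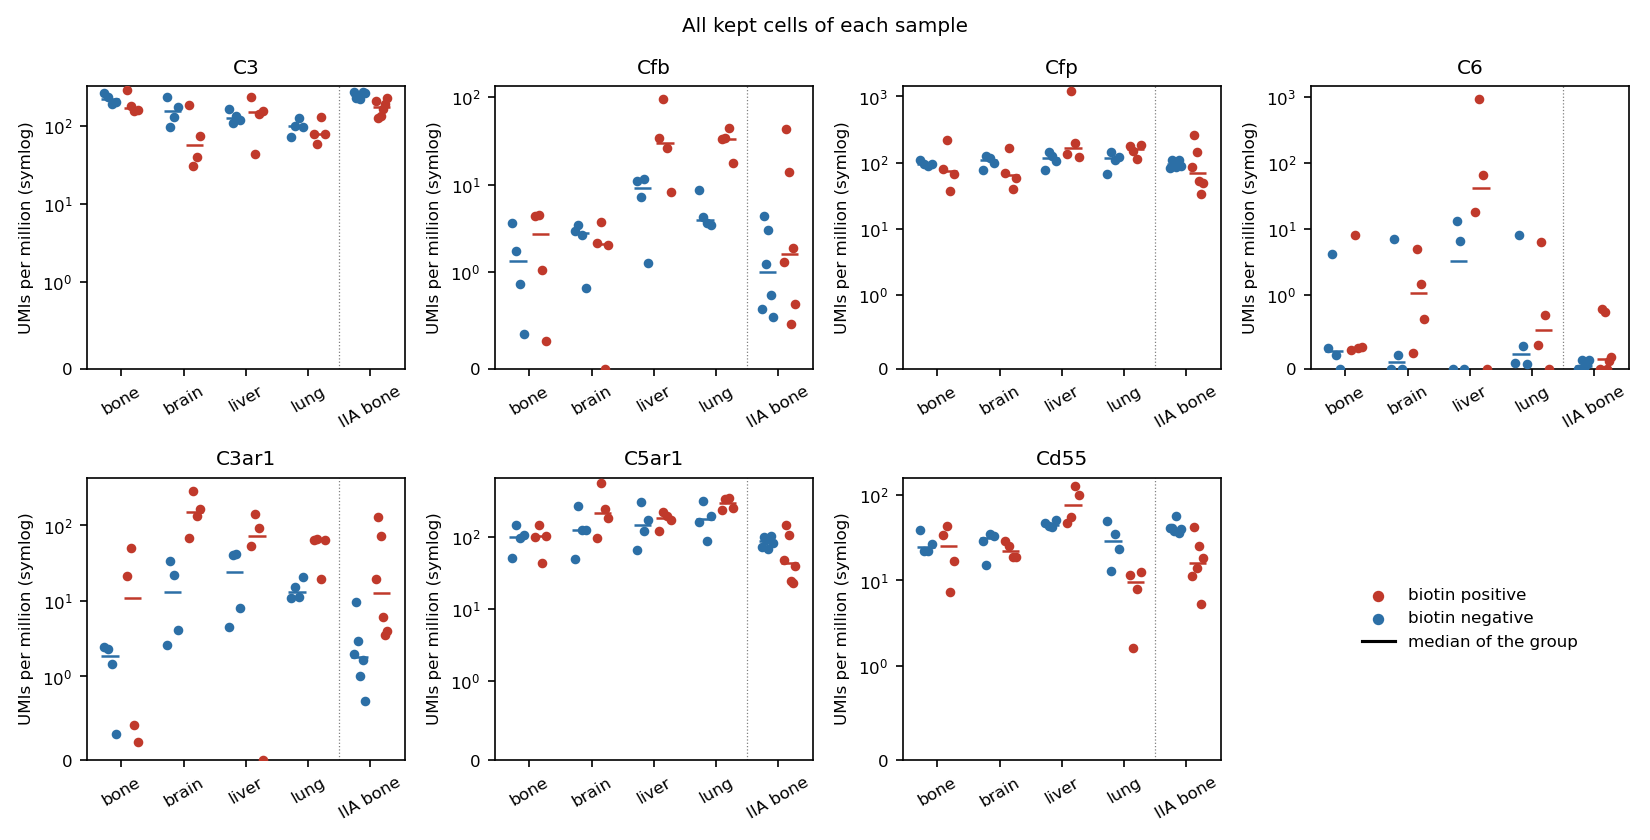
Level of each gene in all kept cells of each sample, in CPM on an axis that is linear below 1 and logarithmic above it; points are samples, red for biotin positive and blue for negative, and lines are group medians. C3ar1 lay higher in every positive than every negative sample of brain, and C6 reached 919 in liver positive sample 2.

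IIA bone, with 6 samples a sort, gave 3 called members of 6 tested, where 50.2% of 12625 genes passed, 27% higher and 23.2% lower. A called share of the members near that background is no result about them as a list. C3 fell in tagged cells, from a lowest, median and highest of 222, 254 and 279 in the negative samples to 128, 179 and 229.7 in the positive ones. The ranges overlapped. The log2 difference was -0.76 (SE 0.15, edgeR adjusted p = 0.0013; 1.6e-06 to 0.0041 over 18 alternatives). C3ar1 rose, from 0.71, 1.81 and 9.76 to 3.51, 12.9 and 129, with overlapping ranges. Its log2 difference was 3.53 (SE 1.01, edgeR adjusted p = 0.0120; 1.8e-04 to 0.0294 over 17 alternatives). Macrophages held 93.1% of the IIA C3ar1 UMIs and averaged 2.39% of negative and 19.9% of positive cells, and C3ar1 was too low to test without them, so none of these alternatives leaves them out. Cd55 fell, from 36.3, 40.7 and 57.4 to 5.34, 16.1 and 42.2, also with overlap. Its log2 difference was -1.41 (SE 0.38, edgeR adjusted p = 0.0090; 4.4e-04 to 0.127), and the call was lost with a looser hashtag ratio, at -1.11 (0.0704), and without the macrophage class, at -1.01 (0.127). Over the 18 alternatives the difference stayed between -1.84 and -1.01.

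The other members of IIA bone did not pass edgeR's test. Cfb had a median of 1.00 in the negative and 1.58 in the positive samples, with 43.3 in positive sample 2, and its log2 difference of 2.36 (SE 1.03, edgeR adjusted p = 0.0750; 0.0276 to 0.369) was 0.93 without that sample. DESeq2 called Cfb, at 2.39 (adjusted p = 0.0276), and without positive sample 6 it passed edgeR's test (adjusted p = 0.0485). C5ar1 had a difference of -0.66 (SE 0.43, edgeR adjusted p = 0.219; 5.0e-04 to 0.347) and Cfp one of -0.12 (SE 0.43, 0.843; 1.1e-05 to 0.975). C5ar1 passed without positive sample 2, at -1.08 (0.0249). Without the macrophage class, both genes were called lower in tagged cells, C5ar1 at -1.45 (5.0e-04) and Cfp at -1.51 (1.1e-05). The number of all genes called in that fit was within 1.5 times that of the full fit, in which 50.2% passed, 23.2% lower. Macrophages averaged 2.39% of negative and 19.9% of positive IIA cells, granulocyte precursors 11.9% and 25.0%, and B cells 5.38% and 1.16%. Neutrophils, with 53.6% of the IIA Cd55 UMIs, averaged 48.3% and 26.9%, monocytes 7.08% and 1.18%, and stromal cells, with 43.0% of the IIA Cfb UMIs, 0.43% and 2.90%. The part of these shares in the all-cell results was not tested beyond leaving classes out.

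The same comparison was made within a class, whose sums can still hold RNA from other cells, since no free RNA was subtracted. In the macrophages of IIA bone both receptor genes and Cfp rose in tagged cells. C3ar1 had 6.72, 26.8 and 122 (lowest, median, highest) in the 6 negative samples, and 174, 232, 195, 150.1 and 147 in the positive samples 1, 2, 3, 5 and 6. Every positive sample lay above every negative one. The log2 difference was 1.83 (SE 0.44, edgeR adjusted p = 0.0081; 1.7e-04 to 0.0438 over 16 alternatives). C5ar1 had 6.72, 68.2 and 99.4 in the negative samples and 127, 216, 203, 178 and 218 in the positive ones, again with no overlap. This was a log2 difference of 1.49 (SE 0.31, edgeR adjusted p = 0.0035; 3.5e-05 to 0.0137). Cfp had 154, 185 and 223 against 439, 440.2, 318, 391 and 532, also with no overlap. For Cfp the log2 difference was 1.18 (SE 0.16, edgeR adjusted p = 1.8e-04; 7.5e-09 to 0.0070). These were 3 of 4 members tested, where 21.4% of genes passed, 10.7% higher and 10.6% lower. The fourth, C3, had a difference of -0.72 (SE 0.29, edgeR adjusted p = 0.0892; 0.0343 to 0.215).

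Positive sample 4 had too few macrophages to enter. Most macrophages of both sorts came from 1 cluster, 90.9% of the negative and 86.4% of the positive ones. Within that cluster C3ar1 ran from 12.1 to 114 in 5 negative samples and from 170 to 235 in 4 positive ones, C5ar1 from 49.6 to 103 and from 122 to 224, and Cfp from 173 to 226 and from 313 to 439. The groups of all 3 genes did not overlap there either. No test was run within the cluster, and the share of all genes without overlap there was not computed.

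**Figure D3:**
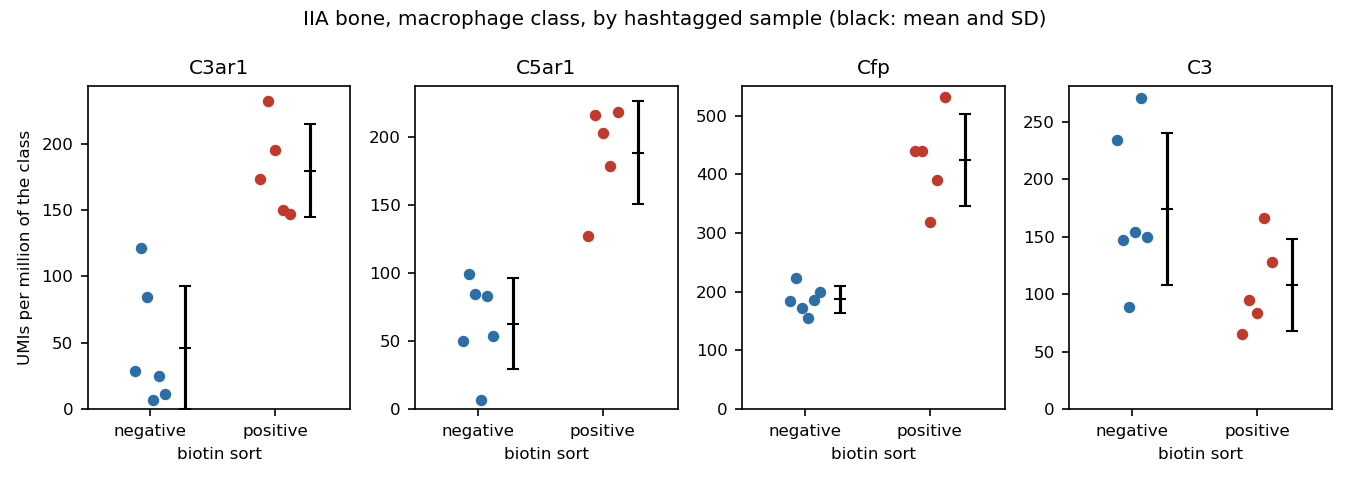
Levels in the macrophage class of IIA bone, in CPM of the class, by hashtagged sample and biotin sort; black marks are the mean and SD. C3ar1, C5ar1 and Cfp lay higher in all 5 positive than in all 6 negative samples.

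In IIA neutrophils 1 of 4 members tested passed, where 9.37% of genes did. C3 fell from 207, 249.96 and 286 in the negative to 139, 176 and 198 in the positive samples, with no overlap. The log2 difference was -0.55 (SE 0.12, edgeR adjusted p = 0.0107; 9.5e-04 to 0.0664 over 17 alternatives), and at the coarser clustering it was -0.37 and missed the threshold (0.0664). C5ar1 leaned upwards, from 149, 166 and 202 to 171, 241 and 261, with overlap and a difference of 0.37 (SE 0.12, edgeR adjusted p = 0.0535; 0.0060 to 0.278). It was called by DESeq2 (adjusted p = 0.0060), by edgeR with the replicate block (0.0365), and by edgeR without negative sample 2, positive sample 4 or positive sample 6 (0.0384, 0.0308 and 0.0238). Different clusters filled the class in the sorts: a cluster led by Acod1 and Il1b, genes of activated neutrophils, held 41.2% of positive and 2.5% of negative neutrophils, and a Camp and Ltf cluster of immature ones 12.9% and 29.7%. Within the Camp and Ltf cluster C3 overlapped, at 331 to 402 in the negative and 311 to 377 in the positive samples.

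In intracardiac neutrophils no member was called in any tissue, and 0% of genes passed in each. All 4 members tested there, C3, Cfp, C5ar1 and Cd55, had unadjusted p-values above 0.05 in every tissue. DESeq2 called none, and the replicate block called C3 in brain, at -0.53 (edgeR adjusted p = 0.0233). In lung, neutrophil C5ar1 had a mean of 447 in the positive and 410.5 in the negative samples and C3 means of 66.7 and 65.6. Monocytes of bone and lung and B cells of bone, liver and lung gave 0 calls among members by edgeR, with 0% of genes called. DESeq2 gave 0 as well. C3 and C5ar1 in bone B cells were the members with an edgeR unadjusted p under 0.05, which 5.22% of genes reached there. C3 in bone B cells had 11.7, 46.4, 17.3 and 8.64 in the negative and 84.0, 78.8 and 16.6 in the positive samples 1 to 3, a log2 difference of 1.68 (SE 0.51, edgeR adjusted p = 0.562; 0.0190 to 1.00).

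Intracardiac macrophages were compared as a choice made after the data were seen. No member passed in brain, liver or lung, with 0% of genes called. C6, Cfb and Cfp in liver and Cfp in brain had edgeR unadjusted p-values under 0.05, as did 16% of genes in liver and 17.7% in brain. DESeq2 called 1 member, Cfp in liver (adjusted p = 0.0492), and the share of all genes it called is not given here. Liver C6 had 0, 65.9, 55.6 and 0 in the negative samples and 112, 1035 and 278 in the positive samples 1 to 3, with no overlap. The C6 difference on the log2 scale was 3.41 (SE 0.82, edgeR adjusted p = 0.0928; 1.4e-17 to 0.321 over 11 alternatives), and with the replicate block 3.26 (0.0265). Liver Cfp had 385, 349, 319 and 304 against 544, 1342 and 608, again apart, with a difference of 1.197 (SE 0.33, edgeR adjusted p = 0.127; 0.0235 to 0.380). Different clusters made up these groups: the Cd5l and Clec4f cluster held 11.4% of negative and 77.2% of positive liver macrophages, and the Pf4 and Spp1 cluster 81.7% and 14.7%. Inside the Cd5l cluster the sorts overlapped for both genes, in the few samples given with C6 above. So few samples cannot show whether the sorts differ there, and no test was run. In brain and lung macrophages C3ar1 differences were 0.19 and 0.04.

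Among untagged neutrophils, C3, C5ar1 and Cd55 differed between the 4 tissues. C3 was 199, 188, 161 and 157 in bone and 249, 91.6, 97.4 and 168 in brain. The liver samples had 126, 85.2, 60.7 and 115, and the lung samples 52.0, 72.8, 78.1 and 59.5. Bone lay above liver and lung without overlap, and brain spanned the bone range. The F-test over tissues gave an edgeR adjusted p of 0.0046 (6.9e-06 to 0.0188 over 21 alternatives). Cd55 was 64.0, 34.8, 45.6 and 46.7 in bone, whereas brain had 52.5, 16.3, 32.8 and 50.2, liver 41.0, 7.75, 7.29 and 26.3, and lung 15.9, 5.55, 2.79 and 8.27. Bone and brain lay above lung (edgeR adjusted p = 0.0087; 6.6e-05 to 0.0335). C5ar1 ran the other way, with 214, 235, 182 and 173 in the bone samples and 465, 424, 371 and 383 in those of lung. Brain had 192, 370.5, 283 and 215, and liver 277, 494, 300.03 and 273. Every lung and liver sample exceeded every bone sample (edgeR adjusted p = 0.0280; 0.0012 to 0.0896). These were 3 of the 5 members tested, where 20% of 8077 genes passed. C5ar1 missed the threshold without bone sample 1, 3 or 4 or lung sample 1, 2 or 4 (0.0541 to 0.0896).

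The medians of C3, C5ar1, Cd55 and Cfp also varied between neutrophil clusters, with no test run. C3 had a median of 263 in the cluster led by Ltf, Camp and Ngp, which are granule genes of immature neutrophils, 136 in the Stfa3 and Mmp9 cluster, and 63.4 to 68.9 in the mature clusters led by Cxcr2, by Prok2 and by Il1b. C5ar1 medians over these clusters, in the same order, were 142, 238, 291, 381 and 468, and Cd55 stood at 56.8 and 66.9 in the first pair against 2.5 to 14.1 in the others. Cfp medians were 90.4 in the first cluster and 123 to 155 in the rest. The Cxcr2 cluster, low for C3 and Cd55, was the largest of untagged bone neutrophils, at 34.9% against 5.3% in lung. The Ltf and Stfa3 clusters held 29.8% and 28.1% in bone and 0.3% and 1.3% in lung, where the Prok2 and Il1b clusters held 34.5% and 58.5% against 5.4% and 1.9% in bone. Within the Prok2 cluster, C3 was 66.7 to 95.5 in untagged bone and 57.2 to 69.0 in lung, C5ar1 278 to 415 and 329.7 to 413, and Cd55 14.8 to 48.8 and 0 to 26.2. All 3 ranges overlapped there. No test was run within that cluster, which was chosen after its values were seen, so overlap does not show equal levels in the 2 tissues.

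**Figure D4:**
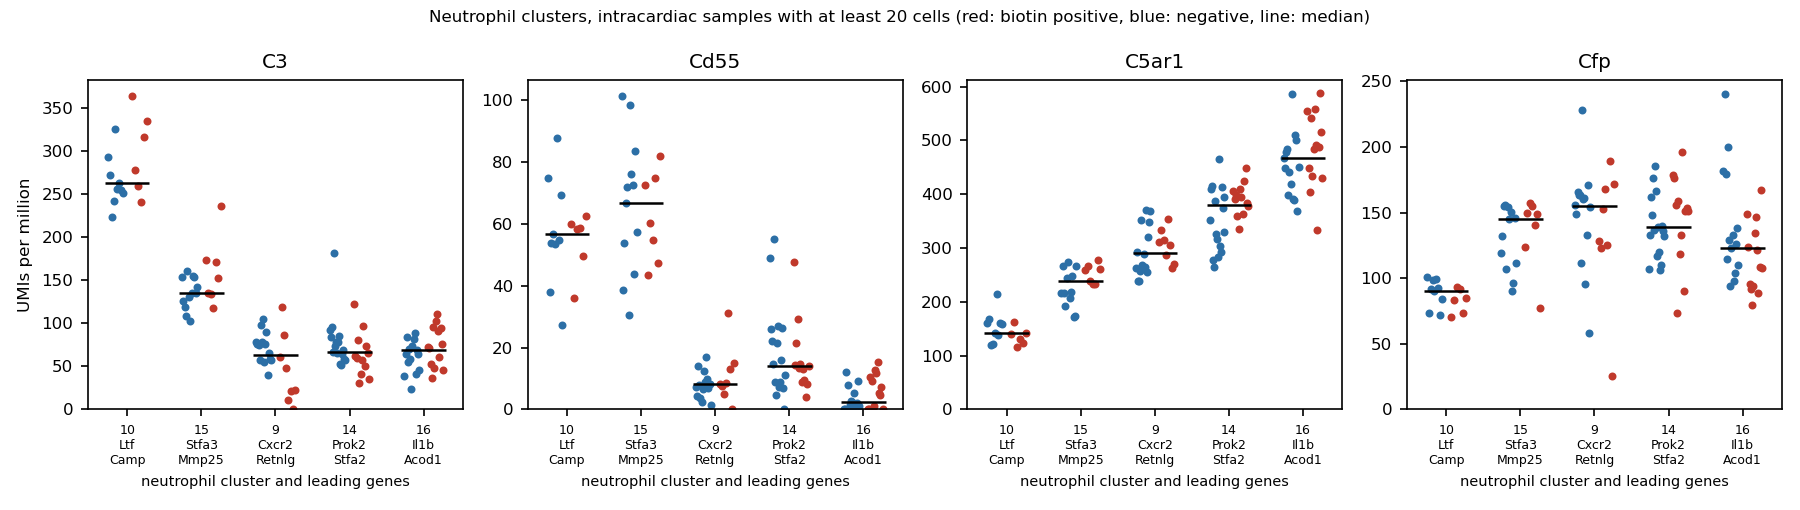
Levels of C3, C5ar1, Cd55 and Cfp in 5 neutrophil clusters of the intracardiac samples, in CPM; points are samples with at least 20 cells of the cluster, red for biotin positive and blue for negative, and lines are medians. The C3 median is 263 in the Ltf cluster and 68.9 in the Il1b cluster, and the C5ar1 median 142 and 468.

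Untagged monocytes and B cells gave no member call over tissues, with 0.13% and 0.211% of genes passing by edgeR, no member at an unadjusted p under 0.05, and none by DESeq2.

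The other complement genes were read from a list of 44. In lung, 6 of 22 tested passed, all higher in tagged cells, beside 11.5% of all genes higher. They included Itgax, a subunit of complement receptor 4, at a log2 difference of 2.87 (edgeR adjusted p = 0.0036), Colec12 at 2.76 (0.0140), C1ra at 1.80 (0.0225) and C1qb at 1.91 (0.0275). Without the macrophage, alveolar macrophage and microglia classes, whose shares are given above, 0 genes were called in lung, these 6 included, and 17 in brain. In brain, the 3 of 20 that passed were C1qa, C1qb and C1qc, at 3.85, 3.73 and 3.93, beside 2.88% of all genes higher. In IIA bone 9 of 22 rose and 7 fell, beside 27% and 23.2% of all genes. Those with the smallest adjusted p were Clu, C1qa, C1qb and Fcna among the former, at 3.05, 4.75, 4.42 and 5.09, and C1rl, Itgb2, C5ar2 and Itgam among the latter, at -1.17, -1.19, -1.19 and -1.21. In IIA macrophages 2 of 10 rose, C1qa at 2.94 (0.0169) and Cd93 at 0.91 (0.0058), where 10.7% of all genes were higher. None of 24 in bone or 23 in liver passed by edgeR, nor did any gene there (0%).

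Likeness was measured as Pearson's r of log2(CPM + 1) over 15 intracardiac classes, which share libraries and depth, and is given as a description. The genes most like C3 were Mgst1, Rhou and Sgms2 (0.94, 0.90 and 0.89). C3ar1 was most like C1qb, C1qa and C1qc (0.95, 0.95 and 0.94), the genes of the classical route's first component. For C5ar1 they were Osm, Slc7a11 and Cd33 (0.96, 0.95 and 0.95), for Cfp Pira2, Emilin2 and Tgfbi (0.95, 0.89 and 0.89), for Cfb Myof, Anxa5 and Anxa4 (0.96, 0.93 and 0.92), and for C6 Cd5l, Vsig4 and Clec4f (0.96, 0.94 and 0.94). Cd55 had the loosest match, with Gm15675, Prkd2 and Trib2 (0.88, 0.83 and 0.79). Between members, r was highest for C5ar1 and Cfp (0.65) and was -0.22 for C3 and C3ar1.

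C6 also appeared outside liver, in the samples numbered 2. In bone, brain and lung these 6 samples had 4.26, 6.88 and 8.28 (lowest, median, highest), and the other 18 had 0, 0.24 and 1.51. The groups did not overlap. Clec4f, a Kupffer cell gene, followed with 19.4, 30.9 and 43.9 against 0, 0.49 and 6.78. There were 3.63 to 7.31 Clec4f UMIs per C6 UMI in those 6 samples, 2.80 in liver positive sample 2 and 3.86 in liver negative sample 2. Neutrophils of the 8 samples numbered 2 had C6 at 0, 4.33 and 7.35, and those of the other 24 were at 0 in 20 samples and reached 3.64. Where these UMIs came from was not tested.

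**Figure D5:**
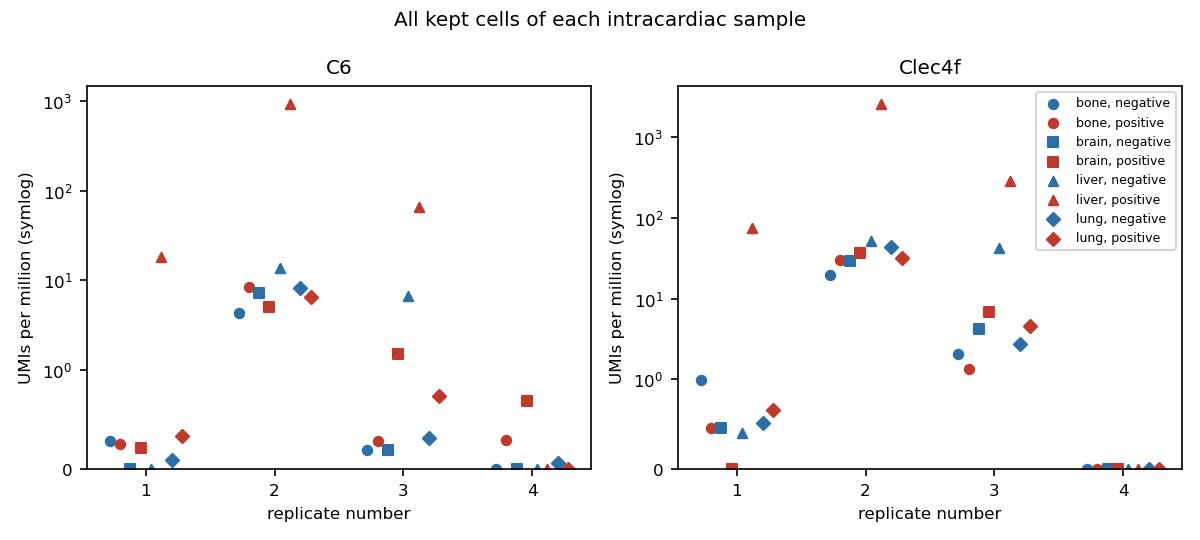
C6 and Clec4f in all kept cells of each intracardiac sample against its replicate number, in CPM on an axis linear below 1 and logarithmic above it; points are samples. Outside liver, the samples numbered 2 held 4.26 to 8.28 of C6 and all others 1.51 or less.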

How the data were processed

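Gene counts of UMIs per cell barcode were used as the authors deposited them; cellranger 6.1.2 (intracardiac) and cellranger 7.1.0 (IIA) wrote them, per the file headers. Per the submitters' processing notes, the build was mm10 and the tools were Cell Ranger and Seurat. Whether intronic reads were counted is not given in the sources used here. CellPlex tags had multiplexed the intracardiac samples, which the authors separated before deposit, per the labels. The IIA cells were assigned here to TotalSeqC hashtags with at least 10 counts and 3 times the second tag, which placed 22685 of 26666 barcodes.

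Cells had at least 500 UMIs, 200 genes and at most 15% mitochondrial UMIs. They were clustered with scanpy 1.11.5 (2000 variable genes, 30 components, 15 neighbours, Leiden resolution 1.0), each experiment on its own, and named from 30 marker lists of 360 genes. The 51 complement genes took no part. Scrublet scores were computed, and doublets were not removed: leaving out the top 5% (2768 intracardiac cells) is an alternative. Counts were summed per sample, over all cells or over a class with at least 20 cells in a sample and 3 samples a sort, and tested with edgeR 4.0.16 in R 4.3.3 (TMM, filterByExpr, quasi-likelihood test, Benjamini-Hochberg over all genes, threshold 0.05), with DESeq2 1.42.0 as an alternative. The edgeR step was tested on simulated data.

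The genes named are the 7 members, at most 4 other complement genes per direction and comparison with the smallest adjusted p, and the 3 genes most like each member. The members and lists were chosen with earlier results of these data known, and clusters singled out in the text were chosen after their values were seen. Monocyte fits of brain, liver and IIA bone, B cell fits of brain and IIA bone, and bone macrophage fits had too few samples. Deviations of same-numbered samples from their group means correlated at 0.448 or more in bone, 0.213 in brain and 0.256 in liver, so those numbers could be read as pairs. The main fits were unpaired all the same, and the replicate block was run only as an alternative.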

Additional observations from a re-analysis of the deposited data

Results flagged for a closer look

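In 12 of 70 groups of 4 to 6 samples tested, 1 sample stood far from the others. Chance alone flags about 1 in 20 independent groups, and these groups are not independent, since they share samples, so the count is not read against that rate. In 9 of the 12 it was a sample numbered 2, counted over the intracardiac and IIA samples, whose numbers no label links. For C6 it was sample 2 in 6 groups: bone negative (4.26 CPM, median of the others 0.19), bone positive (8.28, others 0.28), brain negative (7.25, others 0), lung negative (8.16, others 0.086), lung positive (6.52, others 0.33) and liver positive (919, others 18.0). Cfp also stood at 1200 in liver positive sample 2, with a median of 133 in the others. In IIA bone, sample 2 was high for C3ar1 in the negative sort (9.76, others 1.66) and for Cfb in the positive sort (43.3, others 1.30), and Cd55 was 57.4 in negative sample 4 against 40.3. In lung, C3ar1 was low in positive sample 3 (19.5, others 65.1) and Cfb was high in negative sample 1 (8.56, others 3.65).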

How the results depend on the processing

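In 283 of 299 alternative fits the number of called members, summed over the tissues or classes of a result, equalled the main count or was within 1.5 times of it. Many of those fits only kept a count of 0. In brain it was 0, but 2 with the replicate block, 1 with DESeq2 and 0 to 1 when 1 sample was left out. In liver it was 0, and 1 with DESeq2. In lung it was 3, but 0 without the macrophage, alveolar macrophage and microglia classes and 1 to 3 when 1 sample was left out. The test of the biotin difference between tissues gave 0, but 2 with the replicate block and 1 with DESeq2. Intracardiac neutrophils gave 0, and 1 with the replicate block; intracardiac B cells gave 0, and 1 with no filter on low counts (C3 in bone). Intracardiac macrophages, added after seeing the data, gave 0, but 1 with the replicate block, 1 with DESeq2, 5 with no filter on low counts and 0 to 2 when 1 sample was left out. The shares of all genes called in those macrophage fits are not given here, so these counts are no result about the members. IIA bone gave 3 to 4 in all cells and 4 to 5 over classes when 1 sample was left out, and untagged neutrophils 2 to 3. The causes of these shifts were not tested.

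Same-numbered samples did not pair in lung (lowest correlation -0.092) or IIA bone (0.078), where the block is a hint only: it left the lung members called, and added C5ar1 in IIA neutrophils (adjusted p = 0.0365). Of 1463 alternatives for members without a call, 80 changed the sign of the estimate, and no called member changed sign. Depth limits sparse genes: in IIA bone C6 had 16 UMIs in all and Cfb 423.

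The background moved as well. Of all genes in brain, 339 were called, against 762 with the replicate block, 1225 with DESeq2, 517 with no filter on low counts, 17 without the macrophage and microglia classes and 3 to 758 when 1 sample was left out. In lung 2254 genes were called, against 0 without those classes and 1280 to 2381 when 1 sample was left out. Bone had 0, with 12 by the block and 53 by DESeq2, and liver 0, with 431 by DESeq2 and 83 without those classes. The difference between tissues called 161, against 690 with the block, 536 with DESeq2, 0 without those classes and 64 to 292 when 1 sample was left out. Untagged neutrophils had 1619, against 3048 with the block and 1009 to 2245 when 1 sample was left out. IIA counts stayed within 1.5 times outside the fits that left out 1 sample, which gave 422 to 989 in neutrophils (726 in full) and 803 to 1421 in macrophages (1271 in full).

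A minimum of 50 cells gave no fit for intracardiac monocytes and B cells or for macrophages of liver and lung, and C3ar1 and Cfb of IIA bone were too low to test without macrophages.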
